A study of Arabidopsis thaliana with 24 samples.

Results

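The genes described here are 10 Arabidopsis thaliana loci that carry nitrate from uptake to amino acids. They were chosen by name, as the transporters and enzymes of nitrate uptake and nitrogen assimilation in the series' own probe annotation. No measured value entered that rule, although earlier results of these data were known when it was made. They are NRT1.1 (AT1G12110), NRT2.1 (AT1G08090) and CLC-A (AT5G40890) among transporters, NIA1 (AT1G77760), NIA2 (AT1G37130) and NIR1 (AT2G15620) among the reductases, and GLN1;1 (AT5G37600), GLN2 (AT5G35630), GLT1 (AT5G53460) and GLU1 (AT5G04140) among the enzymes that assimilate ammonium. Each of the 10 has 1 probe set that names it alone, out of 21360 genes with such a probe set, and all 10 were measured on every array.

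Plant cells import nitrate through plasma membrane transporters, store it in the vacuole, and reduce it first to nitrite in the cytosol and then to ammonium in plastids. Glutamine synthetase joins ammonium to glutamate, and glutamate synthase, also called GOGAT, regenerates glutamate from the glutamine. In dark-grown tissue without photosynthesis the reducing power for these steps comes from respiration and the oxidative pentose phosphate pathway, while in green leaves much of it comes from photosynthetic ferredoxin.

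Expression was measured on 24 single-colour Affymetrix arrays, 6 in each of 4 groups. The groups were undifferentiated cultured cells from spaceflight, cultured cells from the ground control, etiolated (dark-grown) seedlings from spaceflight and etiolated seedlings from the ground control. All material was non-transgenic wild type Col-0. The cells derived from hypocotyls and were spread at about 1 g per dish, the seedlings came from about 75 seeds per dish that had been stored at 4 °C, and both grew in the dark on nutrient agar in 60 mm dishes. Flight dishes sat in BRIC canisters, passive spaceflight hardware, and spent 12 days and 21 hours in orbit before RNAlater was added there as fixative. Ground dishes occupied the same canister positions at unit gravity. Every sample is also labelled 7 days old, and no label explains this age beside the longer time in orbit. A dish of seedlings pools whole plants, so a value averages root and shoot, and in such bulk RNA fewer cells of a type and less RNA per cell cannot be told apart. The sample labels do not say whether dishes held separate cultures, although the header of an authors' table calls them biological replicates. The p-values therefore rest on the spread between these dishes, which may be partly technical. In the flight comparison of the cells that spread was pooled over all probe sets.

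The values are the authors' array intensities, taken as log2(intensity + 16). A probe set is called above background on an array where it exceeds 95% of the 27 control probe sets for bacterial genes, which have no target in the plant RNA. That log2 level averaged 9.58 in flight cells, 9.90 in ground cells, 6.89 in flight seedlings and 7.62 in ground seedlings. The same intensity can therefore be above background on a seedling array and not on a cell array. The share of probe sets above background was 26.3% ± 25.6 on flight cell arrays, 18.7% ± 4.72 on ground cell arrays, 62.0% ± 3.54 on flight seedling arrays and 49.9% ± 8.68 on ground seedling arrays (SD, n = 6 each). Flight cell replicate 5 stood apart at 76.7%, while the other cell arrays lay between 9.94% and 29.4%. Ground seedling replicate 1 had the lowest share among seedling arrays, 39.0%, and a median correlation with its own group of 0.689, against 0.808 to 0.826 for the other ground seedling arrays. Arrays of the same group correlated with a median r of 0.31 in the cells and 0.845 in the seedlings over all probe sets. Of 11 root markers and 7 shoot markers, none was above background on 3 or more arrays in either group of cells. In flight seedlings 4 root and 6 shoot markers were, and in ground seedlings 5 root and 6 shoot markers were.

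The nitrate transporters came first in the pathway and differed in where they were above background, a level that was itself higher in the cells. NRT1.1, a plasma membrane transporter that also senses nitrate, was above background on all 12 seedling arrays but on 1 flight and 1 ground cell array. Its log2 intensity had a lowest, median and highest value of 6.79, 7.86 and 8.81 in flight cells, against 5.58, 7.94 and 10.07 in ground cells. In flight seedlings it was 9.67, 10.59 and 11.43, against 7.91, 11.19 and 11.34 in ground seedlings. The flight and ground ranges overlapped in both materials, and ground cells split into 3 arrays above 9 and 3 arrays below 7. The group means were 7.81 in flight cells, 7.94 in ground cells, 10.58 in flight seedlings and 10.56 in ground seedlings. Ordered by level, only the step between the cells and the seedlings, 2.62, was larger than the SDs of the groups beside it.

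NRT2.1, the main high-affinity nitrate transporter of roots, was above background on 1 of 24 arrays, a ground cell array. Its log2 intensity was 5.15, 6.13 and 9.75 (lowest, median, highest) in flight cells, against 6.30, 8.29 and 10.17 in ground cells. Flight seedlings had 4.42, 5.33 and 6.73, against 5.25, 5.90 and 6.37 in ground seedlings. These ranges overlapped within each material, and no step between neighbouring group means exceeded the larger SD. A gene that is not above background has only an upper bound on its level, so the NRT2.1 values carry little about its order.

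CLC-A, an exchanger that loads nitrate into the vacuole against protons, was above background on all 12 seedling arrays, on flight cell replicate 5 and on ground cell replicate 6. In the cells its log2 intensity was 5.26, 6.46 and 7.96 (lowest, median, highest) in flight, against 6.80, 9.68 and 10.38 on the ground. The overlap of these ranges came from ground replicate 2 alone, since the other 5 ground arrays lay between 8.83 and 10.38, above every flight array. In seedlings the values were tight, 8.94, 9.34 and 9.49 in flight against 8.88, 9.45 and 9.85 on the ground. The group means were 6.52 in flight cells, 9.25 in ground cells, 9.31 in flight seedlings and 9.40 in ground seedlings, which is also their order from low to high. The upper 3 did not differ beyond their spread, and flight cells lay 2.72 below the next group, a step larger than the SD of 1.31.

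**Figure D1:**
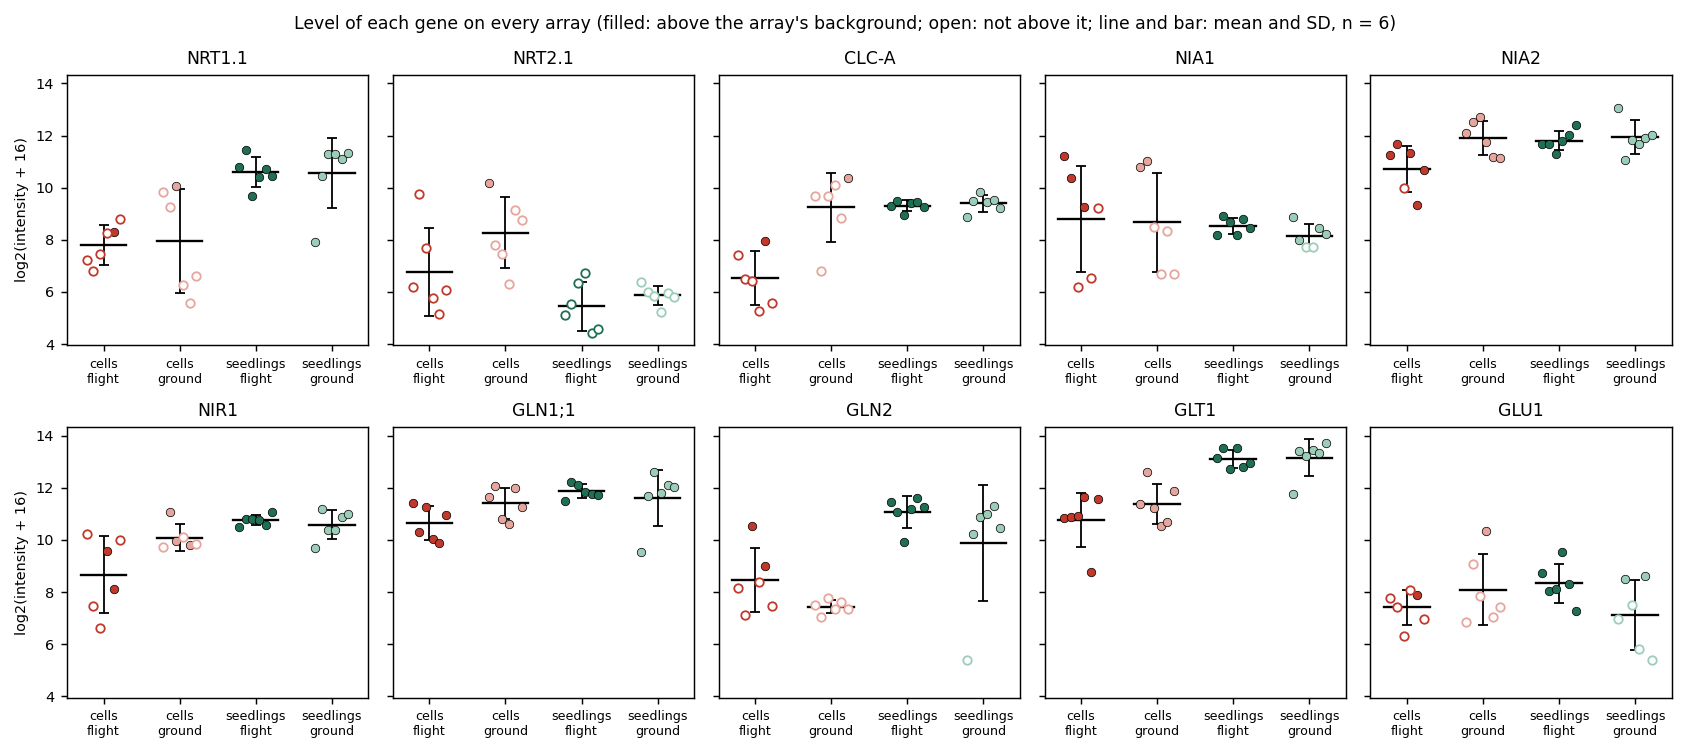
Log2(intensity + 16) of the 10 genes on each of the 24 arrays, in panels by gene, with flight cells, ground cells, flight seedlings and ground seedlings from left to right. Filled points were above their array's background and open points were not, and the line and bar give mean and SD (n = 6). In the cells GLN1;1 and GLT1 were filled on all 12 arrays, NIA2 on 11, and the other 7 genes on 5 or fewer.

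The reductases followed. NIA2, which encodes the major nitrate reductase of Arabidopsis, was above background on 5 of 6 flight cell arrays and on every other array. It had log2 intensities of 9.35, 10.97 and 11.68 (lowest, median, highest) in flight cells, against 11.14, 11.94 and 12.71 in ground cells. In flight seedlings the values were 11.29, 11.74 and 12.39, against 11.06, 11.86 and 13.07 in ground seedlings. All 6 flight cell arrays lay below the ground cell mean, yet the ranges overlapped. The group means were 10.71 in flight cells, 11.90 in ground cells, 11.80 in flight seedlings and 11.93 in ground seedlings. Flight cells lay 1.09 below the next group in order, more than the SD of 0.89, and the other 3 were within their spread.

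NIA1, the second nitrate reductase gene, had the largest SD of the 10 in flight cells (2.03) and, after NRT1.1 (1.99), the next largest in ground cells (1.9). It had 6.21, 9.23 and 11.21 (lowest, median, highest) in flight cells, against 6.69, 8.41 and 11.04 in ground cells, with 3 flight and 2 ground arrays above background. Flight seedlings had 8.17, 8.56 and 8.90, against 7.71, 8.11 and 8.89 in ground seedlings. No step between its group means exceeded the larger SD. NIR1, the plastid nitrite reductase, had 6.61, 8.85 and 10.23 in flight cells, against 9.74, 9.89 and 11.08 in ground cells. In flight seedlings it had 10.52, 10.79 and 11.08, against 9.70, 10.64 and 11.20 in ground seedlings, where it was above background on every array. It was above background on 2 flight and 3 ground cell arrays, the flight and ground ranges overlapped in both materials, and 5 of 6 flight cell arrays lay below the ground cell mean. No step between its group means exceeded the larger SD.

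Of the ammonium-assimilating enzymes, 2 were above background on every array, GLN2 mainly in seedlings and GLU1 mainly in flight seedlings. GLN1;1, a cytosolic glutamine synthetase, was above background on all 24 arrays. Its log2 intensity was 9.89, 10.64 and 11.44 (lowest, median, highest) in flight cells, against 10.61, 11.46 and 12.07 in ground cells. Flight seedlings had 11.51, 11.81 and 12.24, against 9.53, 11.92 and 12.60 in ground seedlings. GLT1, the NADH-dependent glutamate synthase, was also above background on all 24 arrays. It had 8.78, 10.89 and 11.67 in flight cells, against 10.55, 11.30 and 12.63 in ground cells. Flight seedlings had 12.71, 13.04 and 13.53, against 11.75, 13.39 and 13.74 in ground seedlings. Flight and ground overlapped for both genes in both materials. In the order of group means, only 1 step of each gene exceeded the larger SD. For GLT1 it lay between ground cells (11.39) and flight seedlings (13.11), and for GLN1;1 between flight cells (10.65) and ground cells (11.40).

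GLN2, the plastid glutamine synthetase best known for reassimilating photorespiratory ammonium in leaves, was above background on 6 flight and 5 ground seedling arrays, on 2 flight cell arrays and on no ground cell array. It had 7.13, 8.29 and 10.55 (lowest, median, highest) in flight cells, against 7.05, 7.43 and 7.76 in ground cells. In flight seedlings it had 9.91, 11.22 and 11.59, against 5.40, 10.68 and 11.31 in ground seedlings, where 5.40 belonged to replicate 1 and the other arrays started at 10.24. GLU1, the ferredoxin-dependent glutamate synthase of leaves, was above background on all 6 flight seedling arrays but on 2 of 6 ground seedling arrays. Its values were 6.32, 7.61 and 8.09 in flight cells, against 6.86, 7.62 and 10.36 in ground cells, with 1 array of each above background. In flight seedlings they were 7.28, 8.22 and 9.53, against 5.40, 7.24 and 8.61 in ground seedlings, and the ranges overlapped. No step between neighbouring group means exceeded the larger SD for either gene.

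Flight was then compared with ground within each material, the contrast the study was designed around. In the cultured cells, none of the 10 genes passed limma with Benjamini-Hochberg adjustment at 0.05, where 0.0352% of all 22746 probe sets did. At an unadjusted p under 0.05, 1 of the 10 passed, CLC-A, where 5.76% of all probe sets did. By direction alone 8 of the 10 had the lower mean in flight, against 49.6% of all probe sets, and the median log2 difference of the 10 was -0.71, against 0.01 over all probe sets. No member had groups that did not overlap, as 0.268% of probe sets had.

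CLC-A had a flight minus ground log2 difference of -2.72 in the cells (SE 0.82, 95% interval -4.34 to -1.11, unadjusted p = 0.000937, limma adjusted p = 0.547), with 6 of 6 flight arrays below the ground mean. It was -3.01 without flight replicate 5, -2.67 within canister B, which holds 4 arrays of each group, and -2.84 within canister G, which holds 2 of each. When all 24 arrays entered 1 fit, so that the seedlings shared in the estimate of spread, its adjusted p was 0.0349. In the authors' deposited table it had a log2 difference of -3.07, with p = 0.00215 and q = 0.507. Since 10 of these 12 values were not above background, the difference is between array signals that the control probe sets also reach. The arrays' background itself averaged 9.58 in flight cells and 9.90 in ground cells, a difference of -0.32.

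NRT2.1 differed by -1.51 (95% interval -3.13 to 0.10, adjusted p = 0.884) and NIR1 by -1.42 (-3.04 to 0.19, adjusted p = 0.889). NIA2 differed by -1.19 (-2.81 to 0.42, adjusted p = 0.934), and in the authors' deposited table by -1.1 with p = 0.0185 and q = 0.764. The authors' difference for NIR1 was -1.54, with p = 0.0421 and q = 0.8. The limma intervals of NRT2.1, NIR1 and NIA2 include 0. GLN1;1 differed by -0.75, GLU1 by -0.68, GLT1 by -0.62 and NRT1.1 by -0.13, and every interval reached past 0 on both sides. GLN2, at 1.01 (-0.60 to 2.63, adjusted p = 0.946), and NIA1, at 0.12, were the members with a positive difference. The GLT1 difference was -0.22 without flight replicate 5, which also had the highest share of probe sets above background. NRT1.1 differed by -1.42 within canister B and by 2.45 within canister G, so its sign differed between the canisters. Its ground cell values did not split by canister, since replicate 4 of canister B had 6.27, beside 5.58 and 6.63 in canister G. All members of the cell fit share an SE of 0.82, because limma's moderation gave every probe set the same variance there.

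**Figure D2:**
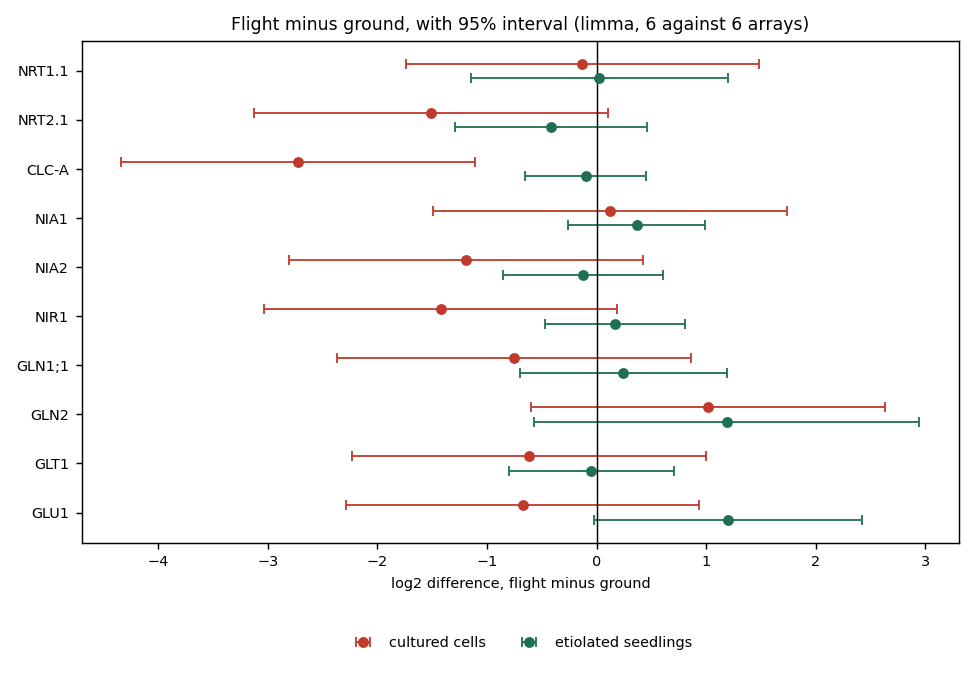
Log2 difference, flight minus ground, of the 10 genes in cultured cells and in etiolated seedlings, with the 95% interval from limma (6 against 6 arrays). The CLC-A interval in the cells, -4.34 to -1.11, was the only one of the 20 to exclude 0, and none of the 20 adjusted p-values was under 0.05. The cell intervals all use 1 variance pooled over all probe sets.

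In the seedlings none of the 10 genes passed either, where 0.0176% of all probe sets did. None passed at an unadjusted p under 0.05 in limma, where 8.01% of all probe sets did. The difference was positive for 6 genes and negative for 4, where 51.5% of all probe sets were negative, with a median of 0.10 against -0.02 over all probe sets, and flight and ground overlapped for every gene, as they did for all but 0.655% of probe sets.

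The 2 widest seedling differences belonged to GLU1 and GLN2, the plastid enzymes that leaves use for photorespiratory nitrogen. GLU1 differed by 1.2 (SE 0.57, 95% interval -0.02 to 2.42, unadjusted p = 0.0533, adjusted p = 0.625), with 6 of 6 flight arrays above the ground mean. That ground mean, 7.13, lay below the ground arrays' background, 7.62 on average, and 2 of 6 ground arrays were above background. In flight seedlings the background averaged 6.89. The GLU1 difference was 1.06 within canister A and 1.89 between the 1 flight and 1 ground array of canister G, and 1.55 with q = 0.444 in the authors' deposited table. GLN2 differed by 1.19 (SE 0.82, 95% interval -0.57 to 2.95, adjusted p = 0.719), and by 0.29 without ground replicate 1. None of the 7 shoot markers passed in the seedlings, and 2 had an unadjusted p under 0.05 in limma. Their summed log2 intensity lay between 11.88 and 12.96 in flight seedlings, against 9.89 to 11.80 in ground seedlings, without overlap, and 6 of 7 had the higher mean in flight. That of the 11 root markers lay between 11.46 and 12.04 in flight seedlings, against 11.00 to 12.23 in ground seedlings. The share of probe sets above background was also higher in flight seedlings, and the part of either in the GLU1 and GLN2 values was not tested.

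For the other 8 genes the seedling difference lay between -0.42 (NRT2.1) and 0.37 (NIA1). The interval for CLC-A, -0.65 to 0.45, was the narrowest of the 10, and that of NIA1 ran from -0.26 to 0.99. NIA2 (-0.12), NIR1 (0.17), GLN1;1 (0.24), GLT1 (-0.05) and NRT1.1 (0.03) also had intervals on both sides of 0. Ground replicate 1 set the sign for several of these. Without it NRT1.1 differed by -0.50, NIA2 by 0.11, NIR1 by -0.01 and GLN1;1 by -0.17, and still no member passed.

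Whether the flight differences of the 2 materials differed was tested as an interaction over all 24 arrays, the flight minus ground difference in cells minus that in seedlings. None of the 10 genes passed, and 0% of all probe sets did. At an unadjusted p under 0.05 in limma, 2 of the 10 passed, CLC-A and GLU1, where 6.63% of all probe sets did. The difference was -2.63 for CLC-A (95% interval -4.34 to -0.91, adjusted p = 0.509) and -1.88 for GLU1 (-3.72 to -0.03, adjusted p = 0.743). All 10 differences were negative, against 48.4% of all probe sets, with a median of -1.03 against 0.04. Those of NRT1.1 (-0.16), GLN2 (-0.17) and NIA1 (-0.24) were small beside their SEs of 0.99 to 1.03, and the first 2 became positive without ground seedling replicate 1.

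The materials were next set against each other, first among flight arrays. Of the 10 genes, 5 passed limma, where 45.4% of all probe sets did, and all 5 were lower in flight cells than in flight seedlings (12.5% of all probe sets). The median of the 10 was -1.66, against 0.75 over all probe sets. A narrower reference was the 9382 probe sets above background on at least 12 arrays, counted over both materials. All members but NRT2.1 and GLU1 were among them. Their median was -0.76, with 607 called higher and 2738 called lower, so the median of the 10 lay below both references. The seedling arrays alone can meet that filter. Quantile normalization of the arrays brought that median of all probe sets to 0.07. It also turned the split of called probe sets, which was 7479 higher and 2852 lower in flight cells as deposited, into 2782 higher and 3227 lower. CLC-A fell by 2.78 (SE 0.61, adjusted p = 0.000361), NRT1.1 by 2.78 (SE 0.70, adjusted p = 0.0015), GLN2 by 2.62 (SE 0.70, adjusted p = 0.00261), GLT1 by 2.34 (SE 0.59, adjusted p = 0.00148) and NIR1 by 2.09 (SE 0.60, adjusted p = 0.00454). GLT1 was above background on all 12 arrays, and its difference with quantile normalization was -1.56 (adjusted p = 0.0578). In flight cells CLC-A and NRT1.1 were above background on 1 array each, and NIR1 and GLN2 on 2 each, while the arrays' background was 2.68 higher there than in flight seedlings.

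Flight cells and flight seedlings did not overlap for 5 genes, NRT1.1, CLC-A, NIR1, GLN1;1 and GLT1, where 16.6% of all probe sets did not overlap. GLN1;1 differed by -1.22 (95% interval -2.38 to -0.05, adjusted p = 0.08) and NIA2 by -1.09 (-2.25 to 0.06, adjusted p = 0.113), and neither passed. GLU1 differed by -0.92, NIA1 by 0.26 and NRT2.1 by 1.31.

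On the ground arrays 4 of the 10 passed limma, where 38.1% of all probe sets did, 1 with the higher mean in cells (27.6% of all probe sets) and 3 with the lower (10.5%). The median difference of the 10, ground cells minus ground seedlings, was -0.19, against 0.77 over all probe sets. Among the 9382 probe sets that met the same background filter it was -0.68, with 526 called higher and 2417 called lower. On the ground the median of the 10 thus lay below that of all probe sets but above that of the filtered ones. With quantile normalization the median of all probe sets was 0.14 and the called ones split into 1840 higher and 2587 lower, against 6282 higher and 2393 lower as deposited.

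NRT1.1 fell in ground cells by 2.62 (SE 0.70, 95% interval -4.03 to -1.22, adjusted p = 0.00349) and was called under all 21 alternatives run. Its ground cell mean, 7.94, lay below the arrays' background there, 9.90 on average, and 1 ground cell array was above background. The size of its fall is therefore uncertain. GLN2 fell by 2.45 (SE 0.70, adjusted p = 0.00615), but in ground cells it was above background on no array, and the bound this leaves is under 1, so no fold is given. Its difference was -3.35 without ground seedling replicate 1. GLT1, above background on all 12 arrays, fell by 1.77 (SE 0.59, adjusted p = 0.0162), and differed by -0.87 with quantile normalization (adjusted p = 0.325). NRT2.1 rose by 2.41 (SE 0.68, adjusted p = 0.00514), and differed by 1.59 with quantile normalization (adjusted p = 0.0983). It was above background on 1 ground cell array and on no ground seedling array, and the arrays' own background was 2.28 higher in ground cells than in ground seedlings. No fold is given for it. The other 6 genes differed by -0.50 (NIR1) to 0.96 (GLU1) and did not pass, and no member had groups that did not overlap, where 9.7% of all probe sets had.

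**Figure D3:**
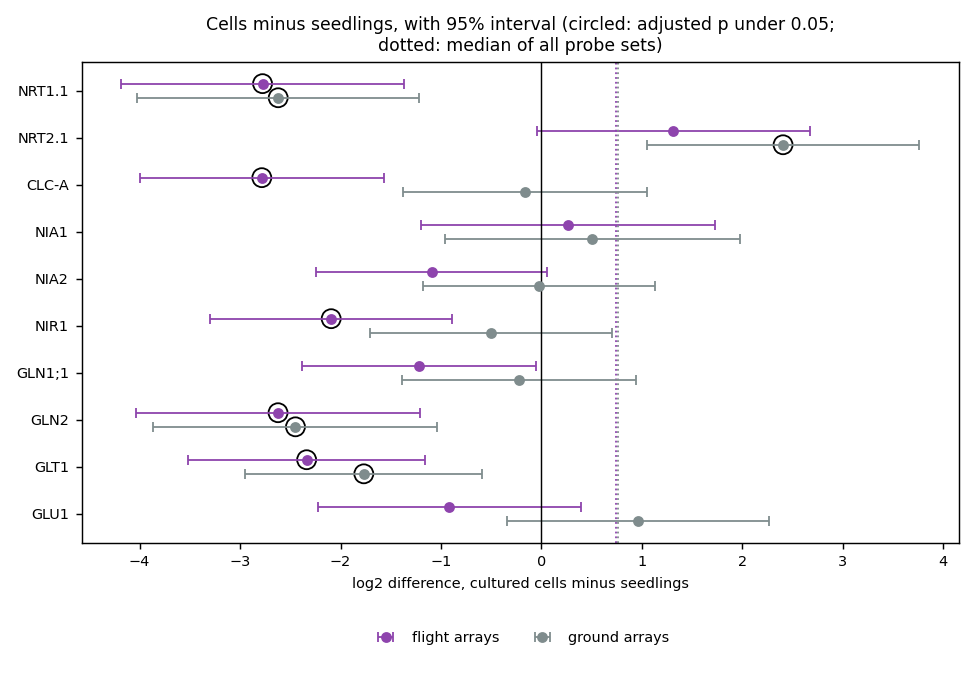
Log2 difference, cultured cells minus etiolated seedlings, of the 10 genes on flight arrays and on ground arrays, with the 95% interval from limma (24 arrays in the fit). Circles mark adjusted p-values under 0.05, which hold for 5 genes in flight and 4 on the ground, and dotted lines mark the median of all probe sets, 0.75 in flight and 0.77 on the ground.

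NRT1.1, GLN2 and GLT1 thus passed on both the flight and the ground arrays. The flight and ground comparisons of the materials take their means from different arrays, but their spread from the same fit over all 24 arrays. Their p-values are therefore not independent. In both comparisons the arrays' background was also higher in the cells, by 2.68 in flight and by 2.28 on the ground. Cells and seedlings came from different canisters except in canister G. With canister as a block, which leaves the materials to be compared within canister G, NRT1.1 and GLT1 passed in flight, while CLC-A was -2.38 (adjusted p = 0.0928), NIR1 -2.39 (adjusted p = 0.09) and GLN2 -3.10 (adjusted p = 0.0631). On the ground NRT1.1 alone passed with the block, while GLN2 was -2.93 (adjusted p = 0.0963), GLT1 -2.33 (adjusted p = 0.109) and NRT2.1 2.64 (adjusted p = 0.117).

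Root and shoot markers were read beside these differences. The summed log2 intensity of the 11 root markers was 11.69 to 12.67 in flight cells, 10.99 to 12.66 in ground cells, 11.46 to 12.04 in flight seedlings and 11.00 to 12.23 in ground seedlings. That of the 7 shoot markers was 11.21 to 11.91 in flight cells, 10.98 to 12.21 in ground cells, 11.88 to 12.96 in flight seedlings and 9.89 to 11.80 in ground seedlings. By gene, 5 of the 11 root markers passed as higher and 2 as lower in flight cells than in flight seedlings, and 5 as higher and 1 as lower in ground cells than in ground seedlings. Of the 7 shoot markers 1 was higher and 2 were lower in flight cells, and none was higher and 1 lower in ground cells. Over all probe sets 32.9% passed as higher and 12.5% as lower in flight cells, and 27.6% and 10.5% in ground cells. No marker of either list was above background on 3 or more arrays of a cell group. SKOR, a root stele potassium channel, was among the higher root markers in both comparisons (2.43 in flight and 1.88 on the ground), yet it was above background on none of the 24 arrays. PRP3 was above it on no cell array, and LTP1, an epidermal lipid transfer protein, on no flight cell array. Whether organ composition takes part in the NRT1.1, GLN2 and GLT1 differences was not tested.

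The remaining nitrogen genes were read from 5 lists of 86 genes, of which 81 have a probe set of their own. In the flight comparisons none of the 81 passed limma in cells, in seedlings or in the interaction, and 4, 8 and 7 of them had an unadjusted p under 0.05. These are 4.94%, 9.88% and 8.64% of the 81, near the 5.76%, 8.01% and 6.63% of all probe sets. The median of the 81 was -0.06 in cells and -0.06 in seedlings, against 0.01 and -0.02 over all probe sets.

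Among the 20 nitrate transport genes, NRT2.6 had the smallest p in cells, at 1.65 (adjusted p = 0.862), and NRT1.7, a phloem nitrate transporter, in seedlings, at -1.43 (adjusted p = 0.519). CLC-B, the closest relative of CLC-A, had the smallest p in the interaction, at -2.51 (adjusted p = 0.579). Of the 5 ammonium and urea transporters, AMT1;2 differed by -0.66 in cells (adjusted p = 0.974), AMT1;4 by -1.2 in seedlings (adjusted p = 0.546) and DUR3, a urea transporter, by 0.94 in the interaction (adjusted p = 0.913). Of the 12 genes that supply the molybdenum cofactor, siroheme and reductant, RFNR1, a root ferredoxin reductase, differed by -1.43 in cells (adjusted p = 0.889), G6PD3 by 0.90 in seedlings (adjusted p = 0.733) and CNX2 by 1.7 in the interaction (adjusted p = 0.826). Of the 18 genes of amino acid assimilation, ASN3, an asparagine synthetase, differed by -1.31 in cells (adjusted p = 0.919) and by -1.67 in the interaction (adjusted p = 0.768), and ASPGB1, an asparaginase, differed by -1.79 in seedlings (adjusted p = 0.625). Of the 26 genes of nitrate signalling, TGA4, a bZIP regulator of the root nitrate response, differed by 2.24 in cells (adjusted p = 0.778) and AT3G25790 by -1.53 in seedlings (adjusted p = 0.461). TCP20, a TCP transcription factor, had the smallest p of that list in the interaction, at 2.07 (adjusted p = 0.582).

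**Figure D4:**
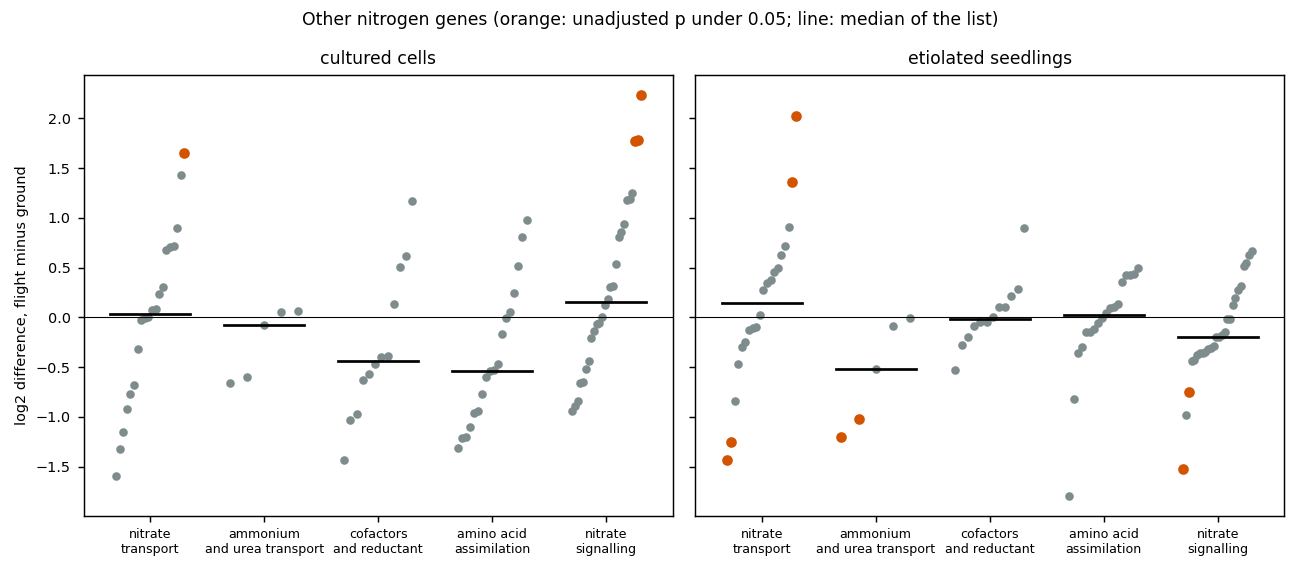
Log2 difference, flight minus ground, of the 81 other nitrogen genes in cultured cells (left panel) and etiolated seedlings (right panel), by list. Each point is 1 gene, orange points have an unadjusted p under 0.05 (4 in cells, 8 in seedlings), and black lines are list medians, which run from -0.54 to 0.16 in cells and from -0.51 to 0.15 in seedlings.

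Between the materials, 22 of the 81 rose and 20 fell in flight cells relative to flight seedlings, which is 51.9% called, against 45.4% of all probe sets. On the ground 19 rose and 16 fell, which is 43.2% called, against 38.1% of all probe sets. By direction 27.2% rose and 24.7% fell in flight, against 32.9% and 12.5% of all probe sets, and 23.5% rose and 19.8% fell on the ground, against 27.6% and 10.5%. Counts of single lists are read beside those shares of all probe sets. The rises depended on the scaling and the falls did not to the same extent, since with quantile normalization 6 rose and 20 fell in flight, and 7 rose and 18 fell on the ground. In nitrate transport 9 of 20 rose and 4 fell in flight (65.0% called), and 9 rose and 2 fell on the ground (55.0%), while with quantile normalization 3 rose and 5 fell in flight and 1 rose and 4 fell on the ground. NRT1.5, which loads nitrate into the root xylem, fell by 3.27 on the ground (adjusted p = 0.000894) and was at least 1.14-fold lower there, with no ground cell array above background. NRT1.11 fell by 3.45 in flight (adjusted p = 0.000262), with 1 flight cell array above background. NRT1.8 rose by 2.74 on the ground (adjusted p = 0.00231) with 1 ground cell array and no ground seedling array above background. NRT2.6, at 3.09, and NRT1.6, at 2.63, rose in flight, although each was above background on 2 flight cell arrays and on 3 flight seedling arrays. AT2G26690, annotated as AtNPF6.2, fell by 2.34 on the ground (adjusted p = 0.00669), but no ground cell array was above background and the bound is under 1, so no fold is given.

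In the cofactor and reductant list 1 of 12 rose and 6 fell in flight (58.3% called), and none rose and 4 fell on the ground (33.3% called, against 38.1% of all probe sets), where 5 had an unadjusted p under 0.05 in limma. CNX7, a subunit of molybdopterin synthase, fell by 3.65 in flight and by 3.18 on the ground (adjusted p = 4.12e-05 and 0.000356), without overlap of the arrays in either. In each comparison 1 cell array was above background for CNX7, so the size of its fall is uncertain. G6PD3, a plastid glucose-6-phosphate dehydrogenase, fell by 2.6 in flight and by 1.83 on the ground, with no cell array above background in either comparison and no bound above 1, so no fold is given. On the ground it passed in 8 of the 12 fits that left out 1 array, and not without ground cell replicate 1 or ground seedling replicate 2, 4 or 5. AT2G43760 fell by 2.41 on the ground, with 1 ground cell array above background. CNX2, which acts at the first step of molybdenum cofactor synthesis, rose by 2.29 in flight with 2 flight cell arrays and 1 flight seedling array above background. Of the ammonium transporters AMT1;2 rose by 2.66 in flight and by 2.80 on the ground, and AMT1;4 rose by 2.18 in flight and by 1.58 on the ground. AMT1;2 was above background on 2 flight cell arrays and 1 flight seedling array, and on 1 ground cell array and no ground seedling array, so no fold is given for it. AMT1;4 on the ground passed in 4 of the 12 fits that left out 1 array, those without ground cell replicate 1 or 5 or ground seedling replicate 1 or 5. With quantile normalization CNX2 (1.36), AMT1;2 in flight (1.71) and AMT1;4 (1.82 in flight and 1.28 on the ground) did not pass, with adjusted p of 0.199, 0.0616, 0.0532 and 0.198.

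In amino acid assimilation 4 of 18 rose and 6 fell in flight (55.6% called, against 45.4% of all probe sets), and 5 rose and 4 fell on the ground (50%, against 38.1%). GLU2, the gene listed as a second ferredoxin-dependent glutamate synthase, fell by 2.95 in flight and by 3.82 on the ground (adjusted p = 0.000849 and 7.27e-05). It was above background on 1 flight cell array and on 2 ground cell arrays. The cytosolic glutamine synthetases split, since GLN1;2 fell by 2.86 in flight while GLN1;5 rose by 2.83 in flight and by 3.00 on the ground, and GLN1;4 rose by 2.89 on the ground. GLN1;2 was above background on 2 flight cell arrays. GLN1;5 was above background on 1 cell array in each comparison, and in flight it did not pass with quantile normalization (1.96, adjusted p = 0.0573). In nitrate signalling 6 of 26 rose and 4 fell in flight (38.5% called), and 3 rose and 6 fell on the ground (34.6%), both below the shares of all probe sets, while with quantile normalization none rose and 4 fell in flight and 1 rose and 6 fell on the ground. LBD38, a repressor of nitrate-responsive genes, fell by 3.39 in flight, where it was at least 1.65-fold lower, and fell by 2.66 on the ground, where no cell array was above background and no bound above 1 holds. Its relative LBD37 fell by 2.57 in flight, with 1 flight cell array above background. AT3G60320 fell by 3.90 in flight (adjusted p = 1.4e-06), with 1 flight cell array above background. It fell by 3.27 on the ground (adjusted p = 3.99e-05), where it was at least 1.55-fold lower. NLP9, of the family of nitrate-responsive transcription factors, rose by 3.33 on the ground (adjusted p = 0.000189), with no array above background in either group and therefore no fold. Of the 28 differences of these named genes that passed, 11 also passed with canister as a block, among them NRT1.11, NRT2.6, CNX7 and G6PD3 in flight, GLU2, GLN1;4 and NLP9 on the ground, and LBD38 and AT3G60320 in both.

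The members were also compared in how they moved from array to array. With group means taken out, the 45 pairs of members had a median Pearson r of 0.02 over the 12 cell arrays, with a range of -0.71 (CLC-A with GLT1) to 0.77, and 0.02 over the 12 seedling arrays, with a range of -0.67 (NIA2 with GLN1;1) to 0.94 (NRT1.1 with GLN2). The high seedling coefficients rested on ground replicate 1. Without it NRT1.1 and GLN2 had r = 0.64, the second highest of the 45, and the range was -0.54 to 0.64 over 11 arrays. These arrays share scaling and brightness, and the coefficients are descriptions. In flight cells 4 of the 10 members were above background on 3 or more arrays, and in ground cells also 4. A low r in the cells therefore cannot show whether members moved together. Pairs of other genes were not taken as a reference.

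The genes most like each member were taken by Pearson r over the 24 arrays, among 8733 single-gene probe sets above background on at least 12 arrays. NRT2.1 and GLU1 did not reach that level, and the other 8 members did. GLT1 was most like AT1G15930 (r = 0.955), AT4G39200 (0.948) and c-NAD-MDH1 (0.946). GLN2 was most like AT4G35720 (0.921) and AT1G77330 (0.91), CLC-A was most like ATB' BETA (0.92), and NRT1.1 was most like ECT3 (0.893) and KCS10 (0.892), of which KCS10 is also on the shoot marker list. For NIR1 the highest r was 0.879 (AT1G31910), for NIA2 0.869 (SKP1), for NIA1 0.837 (ERD5) and for GLN1;1 0.829 (APK4). After group means were taken out, AT1G15930 and AT4G39200 stayed among the 3 most like GLT1, and AT1G31910 among the 3 most like NIR1. For the other 6 members the top 3 held other genes, such as GGP1 for NIA1 (0.888) and MPK16 for NRT1.1 (0.855). The high coefficients over 24 arrays include the difference between the 2 materials and the arrays' scaling. The seedling arrays alone can meet the filter of 12 arrays. NRT1.1, CLC-A, NIR1 and GLN2 passed it mainly through the seedlings, where they were above background more often than in the cells. The coefficients of these genes over 24 arrays are therefore no sign of shared regulation.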

How the data were processed

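Per the labels' protocols, RNeasy kits gave the RNA, the Ovation Pico WTA kit amplified it, and biotin was added with the Encore module. The deposited intensity values are linear and were made by the authors, who per the submitters' processing notes ran MAS5 in Affymetrix Expression Console (no version given). With 2% trimmed off each tail the mean of each of the 24 arrays is 500, so all had been scaled alike. The authors' deposited tables also give, per the file headers, log2 flight over ground differences with p-values and q-values, which were used for comparison alone. How those were tested is not given in the sources used here.

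Here log2(intensity + 16) of 22746 probe sets (64 controls left out) was tested in R 4.3.3 with limma 3.58.1 (lmFit, eBayes, two-sided tests), and p-values were adjusted over all of them by Benjamini-Hochberg, at 0.05. Flight and ground were compared within each material over 12 arrays, and the interaction and the comparisons of materials used 1 fit over 24. The pseudocount draws differences of dim probe sets toward 0. The number of arrays limits the precision. The script was tested on simulated data. There the flight comparison in cells recovered 1% of changes of 2 log2 and 68% of changes of 4 log2. In seedlings it recovered 46% and 94%, with 13 false calls, and between ground cells and ground seedlings 21% and 92%, with 2. A change of 2 log2 in the cells was thus seldom called there. The figures and tables were made with matplotlib 3.10.9, pandas 2.3.3 and numpy 2.4.6 under Python 3.11.15. The files hold no detection calls, and the background level was defined after the data were seen. Where a group had no array above it, "at least N-fold" sets the brighter group's mean against the dimmer group's with each array raised to its background. No fold is given where that is under 1 or where at most 3 arrays of the brighter group were above background.

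The 10 genes, the lists and the tests were chosen with earlier results of these data known. All 10 are described in every comparison. Each list gives the 3 largest differences among called genes, or the gene with the smallest p where none was called. Gene names follow the files or the RefSeq gene table (TAIR10.1), and 4 loci whose usual names are in neither are given by locus. No coordinates are given, since the files name no build. Alternatives were other pseudocounts, a filter on dim probe sets, quantile normalization, other variance models, canister and hardware position as blocks, 1 fit for all arrays, the larger canister alone and each array left out in turn.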

Additional observations from a re-analysis of the deposited data

Results flagged for a closer look

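In each group of 6 arrays the highest and lowest value of each gene was compared with its neighbour by Dixon's ratio, against its 95% critical value. Of 40 gene and group combinations 7 held an array that stood apart, and chance alone gives about 1 in 20. Ground seedling replicate 1 accounted for 4 of them, and was the lowest array for all 4 genes. NRT1.1 was 7.91 there, with the other 5 arrays at 10.45 to 11.34. GLN1;1 was 9.53, with the others at 11.67 to 12.60. GLN2 was 5.40, with the others at 10.24 to 11.31. GLT1 was 11.75, with the others at 13.22 to 13.74. On the same array NIA2 (13.07) and NIA1 (8.89) were the highest of their group. GDH2, a glutamate dehydrogenase, was 17.05 there against 14.33 to 14.60 on the other ground seedling arrays, and ASN1, an asparagine synthetase, 13.39 against 10.98 to 11.81. Both were named after their values were seen. Without that array no member's flight difference in seedlings passed, as with it.

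GLN2 also stood apart in flight seedlings, where replicate 3 had 9.91 and the others 11.07 to 11.59. In flight cells GLT1 was 8.78 on replicate 5, where 76.7% of all probe sets were above background, and 10.85 to 11.67 on the others. In ground cells NIR1 was 11.08 on replicate 2, with the others at 9.74 to 10.13.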

How the results depend on the processing

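Of 1197 member values under the alternatives, 1131 kept the direction and the side of the threshold, 51 changed sign, 9 lost their call and 6 gained one. The number of members called was 0 in each flight comparison as reported and stayed 0 except that 1, CLC-A, passed in cells with all 24 arrays in 1 fit. For cells against seedlings it was 5 in flight, but 2 with canister as a block. On the ground it was 4, but 2 with quantile normalization and 1 with that block. Leaving out any 1 array removed no call. Calls gained in flight were GLN1;1 (pseudocount 64, a trended robust prior, no moderation), NIA2 (-1.09, adjusted p = 0.0298 without moderation) and GLU1 (-1.75, adjusted p = 0.0456 with quantile normalization). None of the values that changed sign passed the test. Quantile normalization gave NRT1.1 -0.058 (seedlings), GLN2 0.14 (interaction), NIA1 -0.41 (flight, cells against seedlings) and, on the ground, NIA1 -0.082, NIA2 1.03 and GLN1;1 0.59. With the canister block NIA1 was -0.77 and GLU1 0.052 in flight, and CLC-A 0.25 and NIA1 -0.52 on the ground. GLT1 was 0.10 in seedlings within canister A. Leaving out 1 array at a time gave, in cells, NRT1.1 -0.60 to 0.30 and NIA1 -0.36 to 0.64. In seedlings it gave NRT1.1 -0.50 to 0.21, NIA2 -0.30 to 0.11, NIR1 -0.010 to 0.29, GLN1;1 -0.17 to 0.44 and GLT1 -0.33 to 0.068. In the interaction it gave NRT1.1 -0.63 to 0.37, NIA1 -0.73 to 0.28 and GLN2 -0.59 to 0.72. Between materials it gave NIA1 -0.22 to 0.78 in flight, and CLC-A -0.38 to 0.33 and NIA2 -0.20 to 0.21 on the ground. The cause was not tested. Counts over all probe sets ran from 0 to 39 in cells (8 as reported), 0 to 10 in seedlings (4), 0 to 5 in the interaction (0), 3345 to 10795 for cells against seedlings in flight (10331) and 2315 to 8942 on the ground (8675). Deviations of arrays in the same hardware position correlated little (r -0.05 to 0.10). The array of the same position was still the best match at B3, G2 and G3 in cells and at A2 and G1 in seedlings, and not at the other positions. With hardware position as a replicate block 0 members passed in each flight comparison (CLC-A in cells: -2.72, adjusted p = 0.566). The dimness of the cell arrays, on which 9.94% to 29.4% of probe sets were above background on all but flight replicate 5, limits what can be seen for NRT2.1, CLC-A, NRT1.1, GLN2 and GLU1 there.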
